A study of Mus musculus with 3 samples.

Results

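Follicular kappa B cells of mouse blood were described here in 3 single-cell libraries, one each from young, aged and aged-GA mice. They were chosen by measured transcripts. A cell had to hold at least 4 unique molecular identifiers (UMIs, each 1 captured transcript) of Cd79a, Cd79b and Ms4a1 summed, at most 1 UMI of the T cell genes Cd3d, Cd3e and Cd3g, at least 1 UMI of Ighd and at least 1 UMI of Fcer2a or Cr2. It also had to hold more Igkc than Iglc1, Iglc2 and Iglc3 UMIs, at most 1 UMI of Zbtb20, Fcrl5, Bhlhe41 and Zbtb32 summed, and at most 3 UMIs of Ifit3, Ifit1 and Isg15 summed. This rule found 5352 cells among the 28333 barcodes that passed the cell filters, out of 44212 barcodes in all. Of these cells, 942 were young, 1806 aged and 2604 aged-GA.

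The study asked how glycyrrhizic acid (GA), a compound of licorice root, affects the blood cells of aged mice. Peripheral blood mononuclear cells (PBMCs) came from young mice of 8 weeks, aged mice of 16 months, and aged mice of 16 months given GA for 1 month (aged-GA). The study's methods describe female C57BL/6 mice, bought for the young group and reared in the laboratory for the aged groups, so age and source of the mice cannot be told apart. GA was injected into the tail vein, and the methods give the controls phosphate-buffered saline by the same route, while the labels record no treatment for young and aged mice. Blood came from 5 mice in each group, in 1 library per group, so spread between mice cannot be seen, no comparison has a replicate and no test was possible. Intervals below are exact 95% intervals and cover counting error only.

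B cells carry one antibody on their surface, built from a heavy chain and either a kappa or a lambda light chain, and most mouse B cells use kappa. Follicular B cells are the main recirculating B cells of blood, spleen and lymph nodes. They carry IgM together with IgD, the low-affinity IgE receptor CD23 (Fcer2a) and the complement receptor CD21 (Cr2), and they present antigen to helper T cells through MHC class II.

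Follicular kappa B cells were 11.3% of filtered cells in the young library (10.6 to 12.0), 19.8% in the aged library (19.0 to 20.6) and 24.0% in the aged-GA library (23.2 to 24.8). The order was young, aged, aged-GA, and the counting intervals did not overlap. Cells that met only the Cd79a, Cd79b, Ms4a1 and Cd3 criteria, called B cells here, were 27.1%, 45.6% and 49.5% of cells. Among these B cells the follicular kappa share was 41.6% in young (39.5 to 43.6), 43.4% in aged members (41.9 to 44.9) and 48.5% in aged-GA (47.1 to 49.8). Single UMIs admit a cell, and the median member held 3081 UMIs in aged and 3748 in aged-GA. The share among B cells was not computed at equal depth, and the part of depth in it was not tested. Within B cells the young and aged intervals overlapped, so the larger gap between young and aged lay in the share of B cells as a whole. A share of cells depends on every other cell type in the library, and more B cells cannot be told apart from fewer other cells.

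**Figure D1:**
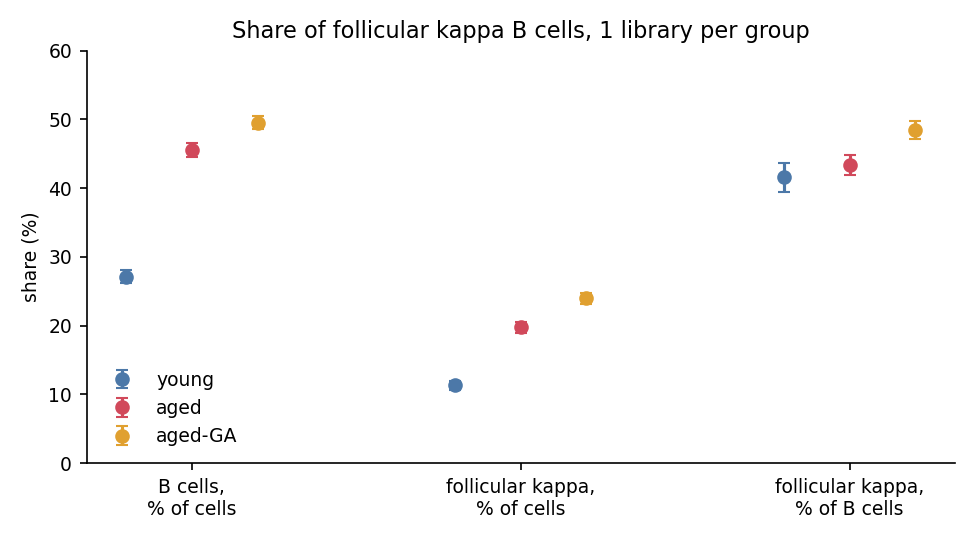
Share of B cells among cells, and of follicular kappa B cells among cells and among B cells, in percent (y axis). Points are single libraries and bars are exact 95% binomial intervals, which cover counting error only. The share of all cells was 11.3%, 19.8% and 24.0% in young, aged and aged-GA, while the share of B cells was 41.6%, 43.4% and 48.5%. Cells were not thinned to equal depth for these shares.

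The criterion on the CD23 and CD21 genes had many cells near its limit. A single UMI of Fcer2a or Cr2 admitted 468 young, 817 aged and 1034 aged-GA cells, and 678, 939 and 993 cells that met every other criterion had none. Few cells lay near the light chain limit, where 4, 18 and 19 cells led by 1 Igkc UMI and 1, 7 and 8 cells were tied. The Zbtb20, Fcrl5, Bhlhe41 and Zbtb32 limit had 211, 432 and 717 cells at 1 UMI and 57, 182 and 308 cells at 2. Within 1 percentage point below the mitochondrial limit of 7.5% lay 180 young members, 9 aged and 156 aged-GA, with 36, 4 and 46 otherwise fitting cells within 1 point above it.

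The median follicular kappa B cell held 3448, 3081 and 3748 UMIs in the young, aged and aged-GA libraries, from 1218, 1313 and 1461 detected genes. Summed over members, the libraries gave 3569560, 6350398 and 10844098 UMIs. Levels below are in CPM, the UMIs counted for a gene in every 1000000 UMIs of these sums. A gene with 0 UMIs could lie at up to 0.840 CPM in young, 0.472 in aged members and 0.277 in aged-GA, the level of 3 UMIs, which serves as a floor and is not one of the 95% intervals. The libraries shared 52, 50 and 62 barcode sequences pairwise, and at most 2 of these were members in both libraries of a pair.

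The genes that chose the members are listed as a description. Fcer2a, the gene for CD23, was at 403 CPM in young, 415 in aged members and 412 in aged-GA. Cr2, the gene for CD21, was lower in abundance at 97.8, 159 and 133 CPM. Ighd, the delta heavy chain gene, was at 900, 1160 and 1050 CPM, and Ms4a1, which encodes CD20, was at 666, 805 and 807 CPM. In T cells of the same libraries (at least 3 Cd3 UMIs and at most 1 UMI of the 3 B cell genes), which should lack these transcripts, Fcer2a was found in 0.0769%, 0.192% and 0.270% of cells thinned to 1500 UMIs. The share in follicular kappa B cells at the same depth was 51.1%, 51.9% and 48.2%, and before thinning it was 88.5%, 84.0% and 86.6%. Cr2 was found in 13.8%, 21.6% and 18.7% of members and in 0.0962%, 0.144% and 0.330% of T cells at this depth. The rule asked for a UMI of either gene, so the excess over T cells was fixed by it and is no support for the label.

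Members with Fcer2a and no Cr2 UMI were the largest class, with 69.3% of young, 60.2% of aged members and 60.1% of aged-GA members. Members with Cr2 and no Fcer2a UMI were 11.5%, 16.0% and 13.4%, and members with both were 19.2%, 23.8% and 26.4%. After thinning to 1500 UMIs, 39.6%, 33.9% and 39.7% of members had neither transcript, so these classes follow capture as well as expression. Genes of marginal zone B cells, which carry high CD21 and little CD23, were examined in the Cr2-only members. Cd9 was at 30.6, 27.6 and 40.0 CPM there and at 18.3, 27.1 and 25.9 CPM in Fcer2a-only members. Mzb1, a chaperone of antibody-secreting and marginal zone cells, was at 250, 319 and 319 CPM against 283, 263 and 288. Plac8 was at 592, 662 and 550 CPM against 556, 549 and 450, and Tm6sf1 at 38.3, 70.0 and 57.7 CPM against 35.7, 51.0 and 51.7. Both were higher in Cr2-only members of each library, but the counting intervals of the classes overlapped in young for Plac8 and in each library for Tm6sf1. Dph5 was lower in Cr2-only members of each library, at 25.5, 29.6 and 33.3 CPM against 32.0, 36.3 and 39.3, with overlapping intervals. Dtx1 was at 15.3, 39.5 and 44.8 CPM against 18.3, 36.1 and 37.5. Cd36 was at 7.66, 8.88 and 15.6 CPM against 10.4, 7.59 and 6.14. Dtx1 and Cd36 were thus lower in Cr2-only members in young and higher in aged and aged-GA, with intervals apart for Cd36 in aged-GA only. Cd1d1, the lipid-presenting molecule of marginal zone cells, stayed below 20 CPM in both classes of each library. Over all members Cd9 was at 22.4, 30.7 and 28.6 CPM and Plac8 at 572, 572 and 469 CPM. Without members with 10 or more UMIs of other lineages, described below, Cd9 was at 14.0, 10.1 and 16.6 CPM. Plac8 was then at 564, 452 and 450 CPM. The classes were not compared without those members, so their part in the class differences was not tested.

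The kappa criterion was examined through the light chain constant genes. The last 90 coding bases of each are shown because 3′ libraries read transcripts near this end, and because the number of differing bases bears on how well the lambda genes can be told apart. They were read from the GENCODE transcripts of build GRCm38 for Igkc on the plus strand (chr6:70726665-70726754) and, on the minus strand, Iglc1 (chr16:19061755-19061844), Iglc2 (chr16:19198539-19198628) and Iglc3 (chr16:19065368-19065457). Each stretch lies in the single constant-region exon. Capitals mark positions at which the 3 lambda genes are not identical.
Igkc: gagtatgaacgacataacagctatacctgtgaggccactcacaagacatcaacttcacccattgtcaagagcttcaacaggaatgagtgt
Iglc1: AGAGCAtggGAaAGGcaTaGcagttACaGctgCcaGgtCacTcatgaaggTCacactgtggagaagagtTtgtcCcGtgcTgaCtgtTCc
Iglc2: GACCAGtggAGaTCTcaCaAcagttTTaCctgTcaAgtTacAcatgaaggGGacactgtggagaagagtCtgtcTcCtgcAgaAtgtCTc
Iglc3: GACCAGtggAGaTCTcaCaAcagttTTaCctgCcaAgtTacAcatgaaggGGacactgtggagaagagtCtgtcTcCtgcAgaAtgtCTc
Iglc2 and Iglc3 differed at 1 of these 90 bases and at 11 of 314 coding bases compared, an identity of 96.5%. Iglc1 differed from Iglc2 at 29 of the 90 bases and from Iglc3 at 28. Counts of Iglc2 and Iglc3 are therefore uncertain relative to each other.

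Igkc, the kappa constant gene, stood at 11500 CPM in young, 9880 in aged members and 11100 in aged-GA follicular kappa B cells. The median member held 39, 31 and 41 Igkc UMIs. In T cells the same gene was at 14.8, 131 and 221 CPM, higher in both aged libraries than in young. Lambda transcripts were nevertheless present in nearly every kappa member. Only 2.23% of young, 0.775% of aged members and 0.384% of aged-GA members had no UMI of Iglc1, Iglc2 or Iglc3, and kappa made up a median of 86.6%, 81.1% and 84.1% of light chain UMIs.

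The 3 lambda genes differed from one another in this respect. Iglc2 was at 1210, 1320 and 1230 CPM in kappa members and at 4020, 3970 and 3680 CPM in lambda B cells, which passed the other criteria with more lambda than kappa UMIs (51, 171 and 195 cells). Iglc3 was at 558, 845 and 746 CPM in kappa members against 524, 1090 and 1030 CPM in lambda B cells, so in young the counting intervals overlapped (534 to 583 and 435 to 627). Iglc1 separated the cells most, at 179, 303 and 252 CPM in kappa members against 4160, 3920 and 4020 CPM in lambda B cells. In T cells Iglc2 reached 2.18, 12.1 and 13.2 CPM and Iglc3 0.607, 5.46 and 5.52 CPM. Lambda B cells in turn held Igkc at 2210, 2400 and 2080 CPM, above the T cell level of their library.

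**Figure D2:**
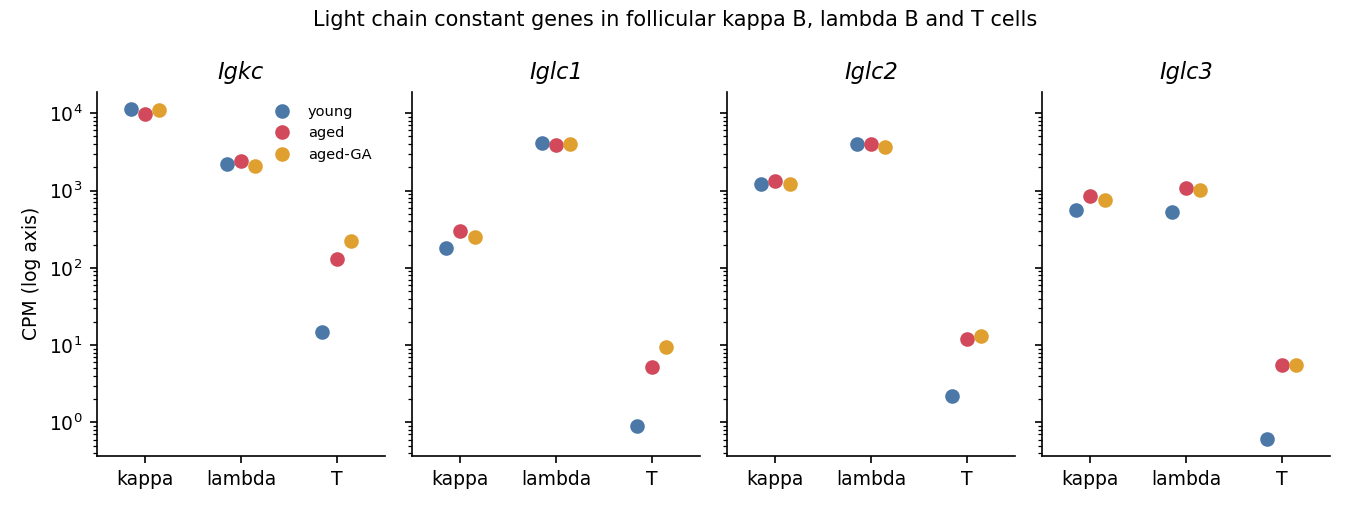
CPM (y axis, log) of 4 light chain constant genes in follicular kappa B cells, lambda B cells and T cells. Each point is 1 library. Iglc1 was near 4000 CPM in lambda B cells and at most 303 CPM in kappa members, while Iglc3 was at 558 against 524 CPM in young.

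Beyond the light chain genes, few genes differed between kappa members and lambda B cells in every library. Of 3909 genes counted, those past 1.5-fold in each of the 3 libraries were Igkc, Gm30211 and Scaper, higher in kappa cells, and Iglc1 and Iglc2, lower. Gm30211 is a long noncoding RNA gene (chr6:70719074-70740554, plus strand, GRCm38) whose span contains Igkc (chr6:70726435-70726966) on the same strand, so its reads cannot be told apart from transcripts of the kappa locus. Scaper lies elsewhere, at chr9:55549879-55938119 on the minus strand. These cells were split on light chain UMIs, so the light chain genes are part of the rule.

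B cells that met every criterion but had no Fcer2a or Cr2 UMI (678, 939 and 993 cells) were compared likewise. Of 5174 genes counted, Fcer2a and Cr2 themselves were the genes past 1.5-fold in the same direction in each library. Ighd was at 853, 1100 and 1010 CPM in those cells and Ighm at 2530, 3060 and 3060 CPM. No gene outside the rule passed 1.5-fold in one direction in all 3 libraries.

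B cells left out for Zbtb20, Fcrl5, Bhlhe41 and Zbtb32 (106, 306 and 595 cells) differed in more genes. Of 4200 genes counted, 13 were lower in follicular kappa B cells in each library and none was higher past 1.5-fold. Besides Zbtb20, which was part of the rule, the 13 held S100a6, Ahnak, Vim, Crip1, Cd44, Lgals1, Id2, Pycard, Rilpl2, Ptms, Ccl5 and Gzma. The log2 difference of S100a6, a calcium-binding protein, was -3.27, -1.91 and -1.32, and that of Ahnak, a large scaffold protein, was -1.22, -1.41 and -1.19. Ccl5 and Gzma are transcripts of cytotoxic lymphocytes, at -1.47, -1.95 and -1.14 and at -0.66, -1.56 and -2.33. The cells with Zbtb20 or Fcrl5 were also deeper, with a median of 4794, 3681 and 4627 UMIs, and the part of depth in these differences was not tested. Only 14 cells were left out for Ifit3, Ifit1 and Isg15.

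Heavy chain transcripts were mainly of the unswitched kind. The rule asked every member for a UMI of Ighd, so this was largely fixed by it and is no support for the label. Ighm, the mu constant gene, was at 2370, 2970 and 2890 CPM. Igha, the alpha constant gene, was at 1.40 CPM in young (5 UMIs), 28.8 in aged members and 31.2 in aged-GA. The plasma cell gene Jchain, which links IgA and IgM chains, was at 0.280, 8.82 and 10.8 CPM. In T cells Igha also stood higher in aged than in young, by 4.21 on the log2 scale, and the part of free RNA in the member values was not tested.

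The kappa variable segments were too thinly captured for a repertoire. Igkv genes gave 517 UMIs in young, 638 in aged members and 794 in aged-GA, and 37.6%, 26.9% and 24.2% of members held at least 1. With at least 5 Igkv UMIs and 80% from one segment, 1 young member and no aged or aged-GA member had a leading segment. Igkv12-44 had the most UMIs, with 7.93% of Igkv UMIs in young (5.75 to 10.6), 6.11% in aged members (4.38 to 8.26) and 8.69% in aged-GA (6.82 to 10.9). These intervals overlapped. Igkv1-117 followed with 5.22%, 4.70% and 6.17%.

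The comparison of aged with young members covered the 7122 genes that reached 100 UMIs when both libraries were added. With 1 CPM added to each level, 1721 genes were at least 1.5-fold higher in aged members (24.2%) and 172 at least 1.5-fold lower (2.42%). The median log2 ratio was 0.29, and in T cells of the same libraries it was 0.37. After the ratios were centred on their median, 695 genes were higher and 537 lower, so the split between directions depended on the scaling. Mitochondrial transcripts made up 5.53% of member UMIs in young, 3.53% in aged members and 4.85% in aged-GA, ribosomal protein transcripts 31.8%, 28.9% and 28.9%, and haemoglobin 0.121%, 0.967% and 0.645%. Lists are given below by their counts, and some also by their median, to be read beside these figures for all genes.

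The 10 genes with the largest ratios above 1 in aged members were genes of neutrophils and other myeloid cells. S100a8 and S100a9, which encode the subunits of calprotectin, stood at 3.36 and 3.92 CPM in young, 1290 and 1280 CPM in aged, and 425 and 443 CPM in aged-GA. Retnlg, Camp, Ngp and Lcn2, genes of neutrophils and their precursors, were at 0 to 3 UMIs in young, and at 204, 73.7, 94.5 and 72.3 CPM in aged. Il1b, Cxcl2, Chil3 and Slpi completed the set. Of the neutrophil list, 8 of 8 counted genes were higher in aged members and 8 of 8 lower in aged-GA than in aged, with summed levels of 10.4, 3010 and 1010 CPM. Of the monocyte list, 10 of 10 were higher in aged and 11 of 11 lower in aged-GA than in aged, with sums of 386, 2040 and 746 CPM. Lyz2, which encodes lysozyme, was the most abundant gene of this list in aged members, at 49.9, 910 and 239 CPM, and F13a1 and Mmp8 had 0 UMIs in young.

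These myeloid transcripts sat in few cells. In aged members 92.4% of the S100a8 UMIs lay in the 19 cells with the most, of 1806, and the highest cell held 2078. In aged-GA members 84.0% lay in 27 of 2604 cells. Cells with at least 10 UMIs of the neutrophil and monocyte lists numbered 7 among the 942 young, 63 among the 1806 aged and 55 among the 2604 aged-GA members. In aged members they carried 85.2% of the UMIs of both lists. Lower numbers of such UMIs were widespread, since 52.8% of aged members held at least 3 such UMIs against 12.2% of young and 37.1% of aged-GA members. At equal depth S100a8 was found in 0.319%, 15.5% and 11.6% of members and in 0.442%, 12.7% and 9.17% of T cells. The part of free RNA in the member share was not tested.

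**Figure D3:**
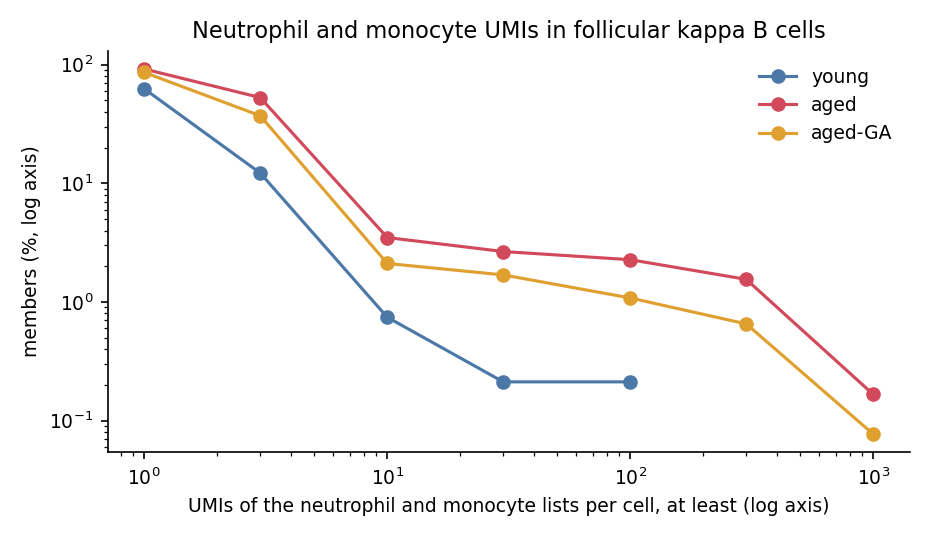
Percent of follicular kappa B cells (y axis, log) with at least the given number of UMIs of the neutrophil and monocyte lists (x axis, log), 1 line per library. At 10 or more UMIs lay 0.743% of young, 3.49% of aged members and 2.11% of aged-GA members, and no young member reached 300.

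Members with 10 or more UMIs summed over the T cell, NK cell, monocyte, neutrophil, platelet, basophil and dendritic lists numbered 10 young, 78 aged and 86 aged-GA cells. Without them, a choice made after the values were seen, 1605 genes of 6858 counted were higher and 184 lower in aged than in young members. S100a8 was then at 3.44, 102 and 67.9 CPM and Lyz2 at 1.72, 137 and 36.6 CPM. The neutrophil list then summed to 10.3, 269 and 187 CPM. Of its counted genes 3 of 3 were higher in aged, and 1 of 3 was lower in aged-GA than in aged. The monocyte list then summed to 276, 537 and 336 CPM, with 3 of 4 higher in aged and 3 of 5 lower in aged-GA than in aged. The remaining lineage lists were summed over all members. The T cell list summed to 74.5, 70.4 and 106 CPM, with Il7r the most abundant in young and Trbc2 in both aged libraries. That sum includes Cd3d, Cd3e and Cd3g, which the rule held to at most 1 UMI, so its low level was partly fixed by the rule. The NK list summed to 373, 178 and 213 CPM, led by Ccl5, and 3 of 3 counted genes were lower in aged members, but without the cells rich in other lineages its sums were 25.5, 74.1 and 119 CPM and Ccl5 was higher in aged by 2.13 on the log2 scale. The platelet list summed to 4.20 CPM in young and 15.6 in aged, the dendritic list to 7.84, 5.35 and 6.55, and the basophil list to 0, 9.29 and 2.31. The erythroid list, led by Hbb-bs, summed to 1210, 9680 and 6470 CPM, and its 5 counted genes were higher in aged members. Haemoglobin UMIs were spread over the members, with a median of 2, 16 and 13 Hbb-bs UMIs per cell.

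Immediate early genes are transcribed within minutes of a stimulus, including the stress of handling cells, and many encode transcription factors. Of 19 counted, 11 were lower and 2 higher in aged than in young members, with a median log2 ratio of -0.70 against 0.29 over all genes. Junb, a subunit of the AP-1 transcription factor, was at 2090 CPM in young (2040 to 2140), 840 in aged members and 1180 in aged-GA. Dusp2, a phosphatase that turns off MAP kinases, was at 791, 233 and 313 CPM, a log2 ratio of -1.76 in aged over young (-1.85 to -1.67). Cd69, a receptor that holds lymphocytes in tissue, was at 462, 184 and 285 CPM. In each of these genes young was highest and aged lowest.

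Ier5 was at 514, 226 and 294 CPM and Ier2 at 419, 224 and 273 CPM. Dusp1, another MAP kinase phosphatase, was at 499, 249 and 250 CPM, and Jun at 320, 170 and 276 CPM. Jund, Btg2, Nfkbia and Ppp1r15a were also past 1.5-fold, with log2 ratios of -0.65, -0.81, -0.70 and -0.84. Fos, at 303, 250 and 316 CPM, and Fosb, at 209, 163 and 240 CPM, were not. The exceptions above 1.5-fold were Nr4a1, an orphan nuclear receptor induced by antigen receptor signals, at 44.3, 93.2 and 72.7 CPM, and Atf3 at 14.8, 27.7 and 8.76 CPM. Without the cells rich in other lineages, 14 of 19 were lower and none was higher, and Nr4a1 had a log2 ratio of 0.49, Atf3 of -0.69 and Egr1, at 0.42 with them, of -0.90.

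**Figure D4:**
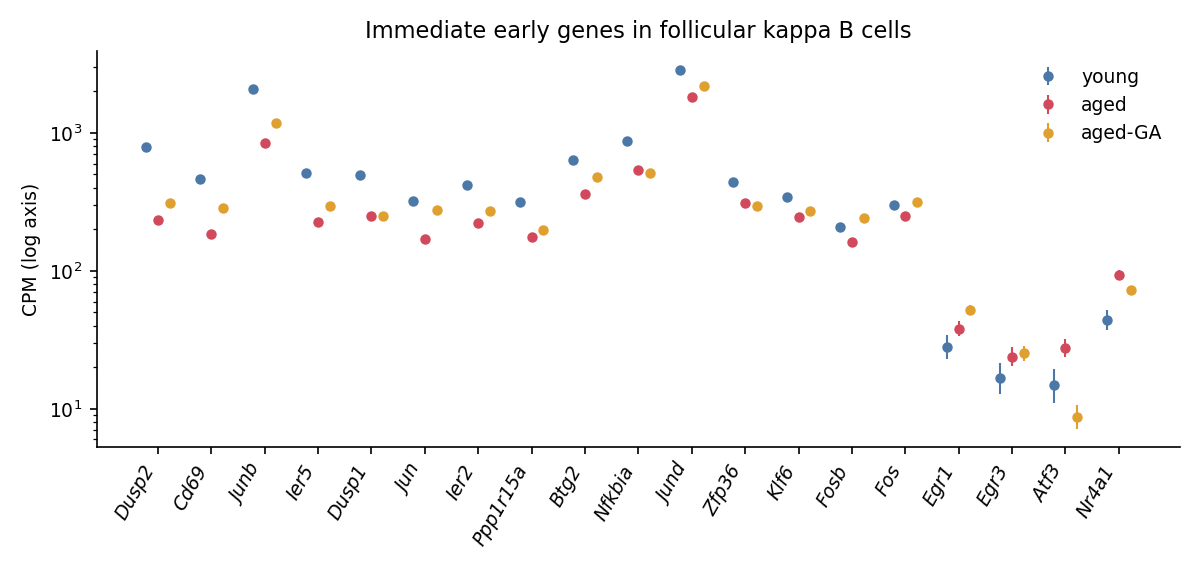
CPM (y axis, log) of the 19 immediate early genes in follicular kappa B cells of the 3 libraries, ordered by the log2 ratio of aged over young. Bars are exact 95% Poisson intervals, which cover counting error only. Junb stood at 2090, 840 and 1180 CPM in young, aged and aged-GA.

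In T cells of the same libraries 2 of the 19 immediate early genes were lower and 5 higher in aged, with a median of -0.08. Dusp2 and Ier5 were lower in T cells too, by log2 ratios of -1.05 and -1.09, while Junb was at -0.28 and Cd69 at -0.25. At equal depth Junb was found in 90.3%, 63.5% and 72.5% of follicular kappa B cells and in 78.8%, 68.4% and 71.7% of T cells. Young members also lay closer to the mitochondrial limit, and the part of RNA quality and cell handling in the immediate early values was not tested.

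Promoters of the genes that were lower were searched for 3 motifs on both strands, in RefSeq windows of build GRCm38.p6 from 250 bases before to 50 after the start. Of the 11 genes, 9 had a window. The cAMP response element TGACGTCA was in 3 of these, and in 1.79% of all 32851 windows. The AP-1 site TGACTCA was in 0 of 9 (5.20% of all windows), and the CArG box, the site of serum response factor, in 0 of 9 (1.63%). Immediate early genes that were not lower were not counted apart, so these counts cannot link the element to being lower. The searched motifs did not overlap in the windows shown. The 3 windows with the element are Dusp1 (chr17:26508423-26508722, minus strand), Ppp1r15a (chr7:45526219-45526518, minus strand) and Btg2 (chr1:134079106-134079405, minus strand), with the element in capitals.
Dusp1: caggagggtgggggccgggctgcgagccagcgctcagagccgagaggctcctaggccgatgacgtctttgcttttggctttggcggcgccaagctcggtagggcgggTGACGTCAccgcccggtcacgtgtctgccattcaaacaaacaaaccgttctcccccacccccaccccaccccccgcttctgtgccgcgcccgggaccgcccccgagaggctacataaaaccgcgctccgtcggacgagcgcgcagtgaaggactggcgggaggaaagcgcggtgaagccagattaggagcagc
Ppp1r15a: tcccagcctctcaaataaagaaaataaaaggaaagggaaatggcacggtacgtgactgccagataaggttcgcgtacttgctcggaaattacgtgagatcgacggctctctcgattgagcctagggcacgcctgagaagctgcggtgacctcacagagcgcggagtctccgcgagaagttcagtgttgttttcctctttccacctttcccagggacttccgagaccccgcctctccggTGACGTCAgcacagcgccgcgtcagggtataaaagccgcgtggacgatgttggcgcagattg
Btg2: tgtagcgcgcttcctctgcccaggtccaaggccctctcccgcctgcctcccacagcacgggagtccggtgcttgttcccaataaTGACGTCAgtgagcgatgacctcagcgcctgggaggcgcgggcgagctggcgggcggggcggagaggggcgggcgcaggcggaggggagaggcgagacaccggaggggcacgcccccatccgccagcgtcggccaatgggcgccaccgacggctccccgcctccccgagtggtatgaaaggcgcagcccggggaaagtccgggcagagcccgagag
The element began 143, 12 and 166 bases before the start in Dusp1, Ppp1r15a and Btg2. A match describes letters in a window and is not a measured binding site.

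Glucocorticoid-responsive genes, which steroid hormone induces in lymphocytes, followed the same direction in part. Of 10 counted, 4 were lower and 2 higher in aged members, with a median of -0.50. Tsc22d3, which encodes the glucocorticoid-induced leucine zipper, was at 1800, 735 and 890 CPM. Txnip, a regulator of glucose uptake, was at 1500, 780 and 816 CPM, and Ddit4, an inhibitor of mTORC1, at 109, 30.5 and 39.4 CPM. Sgk1 was at 60.5, 32.4 and 26.7 CPM. Klf9 and Per1 were higher, with log2 ratios of 1.03 and 0.69. In T cells the counts were the same, 4 lower and 2 higher, and Tsc22d3 had a ratio of -1.22.

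Among the 10 lowest genes in aged members were also Gadd45b at 326, 80.5 and 86.2 CPM and Gadd45g at 161, 49.1 and 42.9 CPM, which encode stress sensors. Id3, an inhibitor of E proteins, was at 423, 126 and 138 CPM, Hes1, a Notch target, at 67.2, 23.5 and 28.4 CPM, and Cited2, a transcriptional coregulator, at 149, 54.8 and 63.4 CPM. Taf13, a subunit of TFIID, was at 51.0, 18.1 and 25.6 CPM. The lowest of all was AY036118 at 3620, 877 and 789 CPM, and its T cell values were 3540, 767 and 730 CPM. Gadd45b, Gadd45g, Id3, Cited2 and Taf13 were lower in T cells too, with log2 ratios of -1.16, -0.99, -1.16, -0.91 and -0.68. Hes1 had too few UMIs in T cells to be counted. Gzma, at 143, 43.0 and 30.3 CPM, is a gene of cytotoxic lymphocytes and not of B cells. It was at 4.58, 8.35 and 8.22 CPM without the cells rich in other lineages, so its place among the lowest genes rested on those cells.

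The B cell receptor pathway runs from the receptor through the kinases Lyn, Blk, Syk and Btk and the adaptor Blnk to Plcg2, calcium and NF-kB. Of 27 genes counted, 9 were higher and 0 lower in aged members (33.3% higher, beside 24.2% of all genes). The median was 0.54. In T cells of the same libraries 15 of 20 counted genes of this list were higher and 0 lower, with a median of 0.80, so the difference was not particular to the members. Syk was at 322, 500 and 478 CPM. Pik3cd, the catalytic subunit of phosphoinositide 3-kinase delta, was at 47.9, 103 and 78.9 CPM, and Prkcb at 123, 212 and 196 CPM. Btk differed little, at 93.6, 96.1 and 76.8 CPM. Cd81, a tetraspanin, had a ratio of -0.55, short of 1.5-fold. After centring on the median gene 2 were higher and 2 lower.

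Inhibitory receptors damp the same pathway. Cd22, a lectin that recruits phosphatases to the receptor, was at 108 CPM in young (97.4 to 119), 280 in aged members and 231 in aged-GA, a log2 ratio of 1.37 in aged over young. It was found in 14.5% of young members at equal depth (12.3 to 16.9), 34.6% of aged members and 27.9% of aged-GA members, against 0.0385%, 0.720% and 0.899% of T cells. Of 13 genes of this list counted, 3 were higher (23.1%, beside 24.2% of all genes) and 1 was lower, with a median of 0.37. Ptpn22, a tyrosine phosphatase, was the lower one at 210, 126 and 126 CPM. In T cells 6 of 10 counted genes of the list were higher and 0 lower, with a median of 0.93. Fcgr2b, the inhibitory IgG receptor, was at 76.5, 92.9 and 86.7 CPM.

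Of 23 B cell transcription factors counted, 9 were higher and 2 lower, with a median of 0.48. Pax5, which holds B cell identity, was at 190, 380 and 344 CPM. Pou2f2, which encodes Oct-2, was at 168, 370 and 361 CPM, Spib at 56.0, 144 and 103 CPM, and Bach2, which restrains plasma cell fate, at 162, 257 and 252 CPM. Ebf1, the partner of Pax5, was at 2080, 1770 and 1740 CPM. The lower ones were Id3 and Klf2. Klf2, which keeps follicular B cells in circulation through homing receptors, was at 2750, 1540 and 2080 CPM, a log2 ratio of -0.84 in members and -0.23 in T cells. After centring, 6 factors were higher and 2 lower. In T cells 11 of 19 counted genes of the list were higher and 1 lower, with a median of 0.72.

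Homing and egress genes were mixed, with 5 of 17 higher and 2 lower and a median of 0.30 beside 0.29 for all genes, and after centring 2 were higher and 4 lower. S1pr1, the receptor for the egress signal in blood, was at 82.1, 145 and 150 CPM. Ccr7, which guides cells to lymph nodes, was at 448, 320 and 338 CPM. Cxcr5, which guides B cells to follicles, was at 33.1, 40.2 and 41.2 CPM. Itgal and Itgb2, the chains of LFA-1, were higher by log2 ratios of 1.06 and 1.09. These were 0.71 and 0.57 without the cells rich in other lineages, the latter short of 1.5-fold.

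MHC class II transcripts were abundant in members of each library, with 2 of 14 listed genes higher and 1 lower in aged. H2-Aa, H2-Ab1 and H2-Eb1 were at 4170, 4210 and 4000 CPM in young and 3610, 3650 and 4060 CPM in aged members. Ciita, the master regulator of these genes, was at 99.5, 200 and 204 CPM. Ifi30, a lysosomal reductase, was at 210, 388 and 272 CPM, and H2-DMb2, a peptide exchange chaperone, was the lower one at 728, 469 and 591 CPM. The ratio of H2-DMb2 was -0.58 without the cells rich in other lineages, just short of 1.5-fold.

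Interferon-stimulated genes were higher in aged members in 10 of 19 cases and lower in 0, with a median of 0.61, and after centring 4 were higher. In T cells 11 of 22 were higher and 0 lower, with a median of 0.63. Ifit3, Ifit1 and Isg15 of this group were used to choose members and are not counted. Slfn5 was at 17.6, 70.1 and 45.3 CPM and Ifi27l2a at 631, 1030 and 642 CPM. Without the cells rich in other lineages 5 of 17 were higher and 0 lower, and Ifi27l2a had a ratio of 0.46. Toll-like receptor genes were higher in 4 of 7 cases, among them Cd180, a receptor of B cells for microbial lipids, at 32.2, 70.5 and 65.8 CPM. The list median was 0.62. After centring 3 of 7 were higher, and without the cells rich in other lineages also 3 of 7. In T cells 5 of 6 were higher and 0 lower, with a median of 1.10.

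Receptors for survival and cytokine signals were listed too. Of 9 BAFF and CD40 axis genes 2 were higher, Traf3 and Nfkb2, and 0 lower, a share near that of all genes, and after centring 0 were higher. Tnfrsf13c, the BAFF receptor, was at 118, 116 and 136 CPM and Cd40 at 38.7, 40.2 and 46.3 CPM. Among 10 cytokine receptor genes 3 were higher and 1 lower, and after centring 2 and 2. Il4ra, the receptor chain for interleukin-4, was at 43.1, 106 and 80.0 CPM, Il21r at 45.1, 80.0 and 69.4 CPM, and Il2rg, their shared chain, at 232, 151 and 189 CPM, with a ratio of -0.55 without the cells rich in other lineages. No gene of the 11 BCL2 family genes or the 10 chaperones counted was past 1.5-fold, while after centring 1 and 4 of them were lower. Without the cells rich in other lineages 1 of 9 BCL2 family genes was higher, Bcl2 with a ratio of 0.63, and 0 were lower.

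The 13 mitochondrially encoded genes were below young in aged members, 8 of them past 1.5-fold, with a median of -0.64. mt-Atp6 was at 12800, 6840 and 12400 CPM and mt-Co3 at 7390, 4110 and 7240 CPM. In T cells 8 of 13 were lower with a median of -0.71. The part of the mitochondrial filter in these values was not tested. Of 72 nuclear respiratory chain genes counted 0 were higher and 1 lower. Of 83 ribosomal protein genes 9 were lower and 0 higher, with a median of -0.14, and after centring 23 were lower.

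Of 3 age-associated B cell genes counted 2 were higher and 0 lower in aged members, with a median of 0.90. Zeb2 was at 55.7, 105 and 81.1 CPM and Itgam, the alpha chain of Mac-1, at 3.08, 23.8 and 11.0 CPM. Without the cells rich in other lineages Itgam, also a gene of myeloid cells, was at 0, 5.39 and 2.25 CPM, and Zeb2 was at 53.8, 83.8 and 73.0 CPM. In T cells 6 of 7 counted genes of the age-associated list were higher and 0 lower, with a median of 2.34. Zeb2 was at 4.96, 63.1 and 33.7 CPM there, so its difference was not particular to the members. Of 4 transitional B cell genes counted 1 was higher and 1 lower. Cd24a was at 259, 165 and 172 CPM and Marcks at 28.9 CPM in young and 51.3 in aged, and without the cells rich in other lineages Marcks had a ratio of 0.43, short of 1.5-fold. Of 12 senescence genes counted 4 were higher and 3 lower, and 3 of 9 were higher and 2 lower without the cells rich in other lineages, Ccl5 then being among the higher. The counts were 0 of 5 higher and 2 lower without the doublet-like members (at least 3 UMIs of other lineages, or over 3 times the median UMIs). With every member included the higher ones held Il1b, Ccl3 and Ccl4, genes that myeloid cells express, and the lower ones Ccl5, a gene of cytotoxic lymphocytes. Cdkn1a, a cell cycle inhibitor of this list, was at 9.24, 18.6 and 7.75 CPM, and at 8.30, 7.48 and 5.19 CPM without the cells rich in other lineages. Myc, a growth regulator, was at 93.0, 38.6 and 47.5 CPM.

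**Figure D5:**
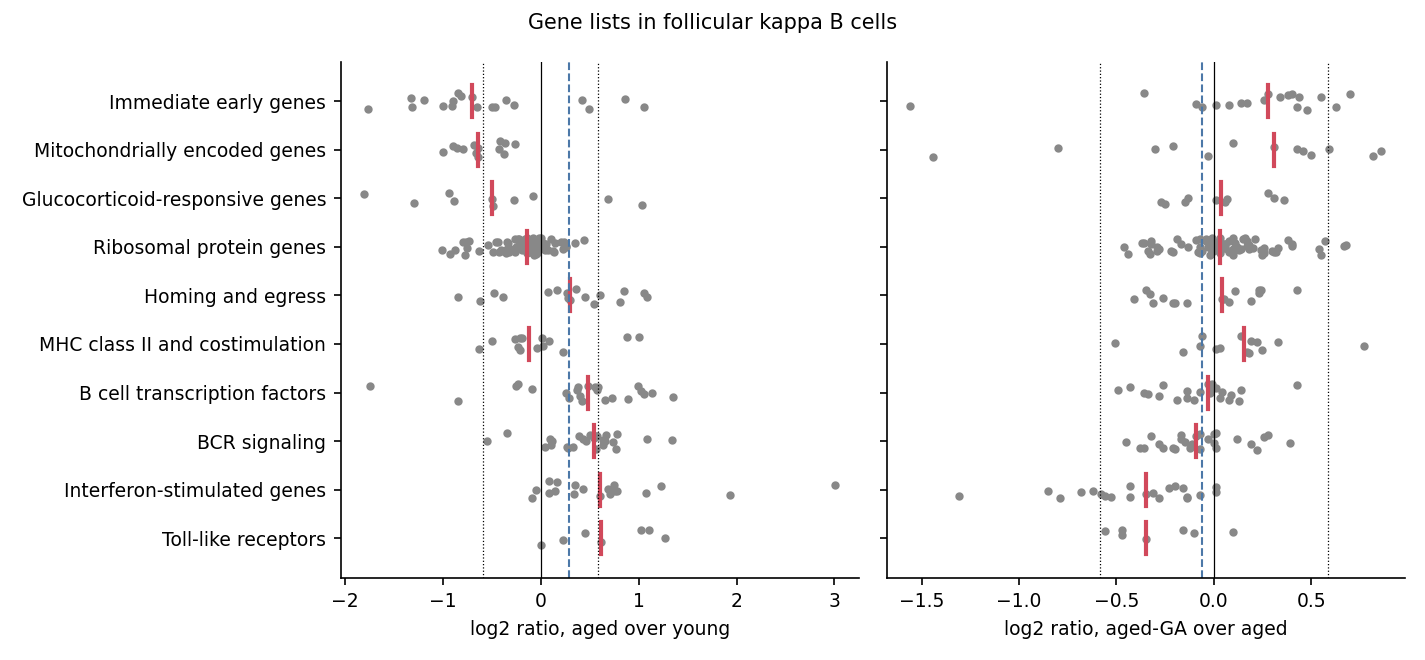
Log2 ratio of each counted gene (points, x axis) of 10 gene lists in follicular kappa B cells, aged over young on the left and aged-GA over aged on the right. Red bars are list medians, the dashed line is the median of all genes (0.29 and -0.06) and dotted lines mark 1.5-fold. The immediate early list had a median of -0.70 on the left and 0.28 on the right.

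The comparison of aged-GA with aged members used the same aged library, so its values are not independent of those above. It covered 8451 genes, of which 70 were at least 1.5-fold higher in aged-GA (0.828%) and 224 at least 1.5-fold lower (2.65%). The median log2 ratio was -0.06 in members and -0.08 in T cells. After centring 112 were higher and 177 lower. Without the cells rich in other lineages 80 were higher and 117 lower, of 8182 genes counted.

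Myeloid genes made up the lower end in aged-GA. Lcn2 had a log2 ratio of -2.39. Chil3 was at 77.8 CPM in aged and 18.5 in aged-GA, and Ifitm3, an antiviral membrane protein, at 276 and 75.2. S100a4, Ms4a6c, Alox5ap, Fcer1g, Retnlg, Ngp and Lyz2 completed the 10. Fcer1g, the signalling chain of Fc receptors in myeloid cells, was at 223 and 72.2 CPM. Without the cells rich in other lineages, the 10 lowest genes held Lyz2 and Ifitm3 as before, and also Tyrobp, Brd1 at 158 CPM in aged and 90.6 in aged-GA, Gstp1 at 54.6 and 31.7, and Tmsb10, an actin-binding peptide, at 3710 and 2310.

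Among the 10 genes highest in aged-GA over aged were 4632427E13Rik, Avl9, Cd86, Jun, Tespa1, Hs3st1, Cd69, Tpt1 and Smagp. Cd86, the costimulatory ligand of CD28, was at 55.5 CPM in young, 38.9 in aged members and 67.0 in aged-GA, a log2 ratio of 0.77 in aged-GA over aged (0.58 to 1.00). It was the gene past 1.5-fold among the 14 MHC class II and costimulation genes. Tpt1, which encodes the translationally controlled tumour protein, was at 7080, 3700 and 5630 CPM. Avl9 was at 161, 108 and 184 CPM. In T cells Tpt1 was at 12200, 5480 and 8430 CPM.

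Of the 19 immediate early genes 2 were higher and 1 lower in aged-GA, with a median of 0.28 against -0.06 over all genes. The higher ones were Jun, with a log2 ratio of 0.70 (0.60 to 0.80), and Cd69, with 0.63 (0.53 to 0.73), and the lower one was Atf3. Cd69 had a ratio of 0.57, short of 1.5-fold, and Egr1 of 1.36 without the cells rich in other lineages. Junb had a ratio of 0.48, Klf2 of 0.43 and Dusp2 of 0.43, short of 1.5-fold. In T cells the ratio was 0.23 for Jun, 0.64 for Cd69 and 0.12 for Junb, and the list median was 0.06. The glucocorticoid-responsive list had 0 of 10 genes past 1.5-fold in either direction.

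No gene of the 27 in the B cell receptor list was past 1.5-fold between aged-GA and aged, nor any of the 23 transcription factors, and the medians were -0.09 and -0.03, the latter 0.02 after centring. Cd22 had a ratio of -0.28 and Spib of -0.49. Interferon-stimulated genes were lower in 5 of 21 cases and higher in 0, with a median of -0.35. Ifi27l2a had a ratio of -0.68, Xaf1 of -0.79 and Slfn5 of -0.62. Without the cells rich in other lineages 2 of 19 were lower and the median was -0.26, with Ifi27l2a at -0.49 and Slfn5 at -0.42. In T cells the list had 3 of 22 genes lower and a median of -0.34.

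Mitochondrially encoded genes were split between aged-GA and aged. mt-Atp6, mt-Co3 and mt-Nd2 were higher, with log2 ratios of 0.86, 0.82 and 0.59, the last of them 0.55 without the cells rich in other lineages. mt-Atp8, at 461, 359 and 132 CPM, and mt-Nd4l, at 1350, 844 and 484 CPM, were lower, with ratios of -1.44 and -0.80. In T cells mt-Atp6 had a ratio of 0.87 and mt-Atp8 of -1.41, so both differences were also present outside the B cells. The genes mt-Atp8 and mt-Atp6 lie next to each other on the mitochondrial genome with overlapping coding parts, and how reads were shared between them was not tested.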

How the data were processed

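Single-cell libraries of PBMCs were made with the 10x Genomics 3′ version 3 kit. The deposited matrices hold UMI counts per gene and barcode that the authors produced with Cell Ranger on mm10, as named in the submitters' processing notes. The matrix headers name version 5.0.0, which differs from the version in the study's methods. The count matrices held 10842, 16038 and 17332 barcodes and 58894294, 82260961 and 98155671 UMIs for young, aged and aged-GA. Barcodes were kept with at least 200 genes, at most 7.5% mitochondrial and under 20% haemoglobin UMIs, leaving 8354, 9136 and 10843. The study's own cell calls were not used here.

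Member counts were summed per library and scaled to CPM. Log2 ratios used a pseudocount of 1 CPM on genes that reached 100 UMIs when both libraries were added, so ratios of low genes are understated, and a gene was called past 1.5-fold. Genes used by the rule were left out of list counts. The named genes are those of the lists and, per comparison, the 10 highest and 10 lowest ratios among genes with at least 50 CPM in one library, without haemoglobin, mitochondrial, ribosomal protein and antigen receptor segment genes. Other genes were named after their values were seen. Detection rates were set side by side at a thinned depth of 1500 UMIs per cell, which left out 2, 4 and 4 members. No doublet caller was run, and doublet-like cells were left out as an alternative. Levels and shares have exact Poisson and binomial intervals, ratios conditional binomial ones. How the 5 mice of a group were combined into its library is not given in the sources used here. The members and lists were chosen with earlier results of these data known. The ratio, interval and thinning code was tested on simulated data. Python 3.11.15, NumPy 2.4.6, SciPy 1.17.1 and pandas 2.3.3 were used. Values of some listed genes are not reported here.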

Additional observations from a re-analysis of the deposited data

How the results depend on the processing

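With 1 library per group, no result has a replicate check, and counting intervals do not cover differences between mice. The follicular kappa share moved most with the rule. It was 4.71%, 10.7% and 12.7% in young, aged and aged-GA when the rule was applied to cells thinned to 1500 UMIs, and 5.67%, 10.8% and 14.5% when 2 UMIs of Fcer2a and Cr2 were asked. A minimum of 500 genes, an upper limit on genes, a mitochondrial limit of 15% and a B cell minimum of 8 UMIs left it within its counting interval.

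Of the genes higher and lower in aged than in young (1721 and 172 of 7122 counted), centring gave 695 and 537. A minimum of 10 UMIs gave 3034 and 512 of 11138 counted. A pseudocount of 10 CPM gave 951 higher, and leaving out doublet-like members 1026 of 4863 counted. Of the genes higher and lower in aged-GA than in aged (70 and 224 of 8451 counted), centring gave 112 higher. A pseudocount of 10 CPM gave 17 and 95, and a minimum of 10 UMIs 279 and 649 of 11907 counted. Leaving out doublet-like members gave 134 lower of 5879 counted. Leaving out members with 10 or more UMIs of other lineages, added after seeing the data, gave 117 lower of 8182 counted. The doublet-like alternative removed 183 of 942, 1143 of 1806 and 1500 of 2604 members, because 3 UMIs of other lineages were common in the aged libraries.

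Among genes past 1.5-fold that still had 100 UMIs under the alternative, these changed sign. Leaving out doublet-like members gave log2 ratios of -0.31 for Cst3 in aged over young, and 0.01 for Cst3 and 0.56 for Cxcl2 in aged-GA over aged. Leaving out members with 10 or more UMIs of other lineages gave 2.13 for Ccl5 and -0.69 for Atf3 in aged over young, and 0.47 for Cxcl2 in aged-GA over aged. Smaller differences changed sign there too, such as Egr1 and Cd9 in aged over young, at -0.90 and -0.44, and Il1b in aged-GA over aged, at 0.09. The mean of CPM over cells gave 0.10 for Ccl5 in aged over young and 0.04 for Ltf in aged-GA over aged. The cause was tested for none of them. Members with a leading Igkv segment numbered 1, 0 and 0, and were 89, 92 and 89 with at least 2 UMIs and 60%, and 0 in each library with at least 20 UMIs and 90%. No paired analysis was possible because each group has 1 library.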
